A study of Mus musculus with 6 samples.

Results

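The difference of the co3 arrays from the rest was described in a mouse macrophage line by comparing 2 of the 6 arrays of the series with the other 4. The 2 arrays titled co3, 1 from the Ms4a8a clone and 1 from the vector clone, formed 1 side, and the 4 arrays titled co1 and co2 formed the other. For each gene the log2 value on co3 minus the mean of co1 and co2 was taken within each clone, and the mean over both clones is called the shift. The split was chosen from measured values, because the array values themselves showed that co3 stood apart, so the shift carries no test and is given as a description. The labels say nothing of what differed about co3.

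All 6 arrays held total RNA from RAW264.7, an established mouse macrophage line, after 48 h in serum-containing DMEM. Both groups held both genotypes. The Ms4a8a clone (clone 8, called K8) had been lipofected with a recombinant Ms4a8a cDNA in the expression vector pEF6/V5-His, and the vector clone (clone 3, called K3) with the empty vector, and both had been selected with blasticidin. Each genotype was 1 clone with 3 arrays, so transgene and clone cannot be told apart. The design text gives the gene as Ms4a4a at a single point, for the propagated clone. Separate cultures behind the 3 arrays of a clone are not stated, and the source names give number 3 to the co3 array of both clones.

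A macrophage in culture can divide, or leave the cell cycle and turn to other work. Entry into S phase depends on E2F transcription factors, which switch on the genes of DNA replication. Mitotic genes are read late in the cycle under MuvB complexes and the factor NF-Y. Resting or stressed macrophages keep large lysosomes, use Fc receptors to take up antibody-coated particles, release chemokines, and adjust glucose use, protein folding and iron uptake to what the medium supplies.

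The co3 arrays of the 2 clones resembled each other more than either resembled the other arrays of its own clone. The correlation across genes was 0.991 between the Ms4a8a co3 and vector co3 arrays, 0.969 and 0.973 between Ms4a8a co3 and the Ms4a8a arrays co2 and co1, and 0.973 and 0.974 between vector co3 and the vector arrays co2 and co1. Arrays co1 and co2 of 1 clone correlated at 0.998 in the Ms4a8a clone and 0.997 in the vector clone. These are the values that chose the split. Between Ms4a8a co3 and vector co3, 329 of 16387 named genes differed at least 2-fold, while 1540 genes differed at least 2-fold between co3 and the mean of co1 and co2 in the Ms4a8a clone and 1468 in the vector clone. The same distance separated co1 from co2 for 23 genes in the Ms4a8a clone and 35 in the vector clone. Between the clones, 172 genes differed at least 2-fold on co1 and 115 on co2. At all 3 numbers and in the same direction, 53 genes did, 24 higher and 29 lower in the Ms4a8a clone. Of these 53, 11 were also among the genes counted below for co3, as were 1071 of all 16387 named genes.

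Labelling and RNA controls moved with co3. The log2 difference between the 3′ and the 5′ probe set of beta-actin was 0.45 and 0.62 on the co3 arrays of the Ms4a8a and vector clones, against 0.13 to 0.17 on the 4 others. The same difference was 1.46 and 1.39 against 0.83 to 0.90 for transferrin receptor, 0.86 and 0.91 against 0.33 to 0.50 for pyruvate carboxylase, and 0.96 and 0.90 against -0.17 to 0.44 for 18S ribosomal RNA. For Gapdh it was -0.06 and -0.12 against -0.19 to -0.16. The bacterial spike-in phe, which is added to the sample and is no transcript of the cell, read 1.22 and 0.95 against 0.35 to 0.43. For dap it was 0.86 and 1.00 against 0.65 to 0.69, while the lys and thr sets used did not separate the arrays. In a second pair of thr sets, the 3′ and 5′ values lay further apart on both co3 arrays than on the 4 others. In a second pair of lys sets they did not. The part of these differences in the results below was not tested. In bulk RNA a lower level can come from fewer cells of a state or from less RNA per cell, and these cannot be told apart. Since every array held the same set of values after normalisation, each level is relative to the other genes of its array.

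**Figure D1:**
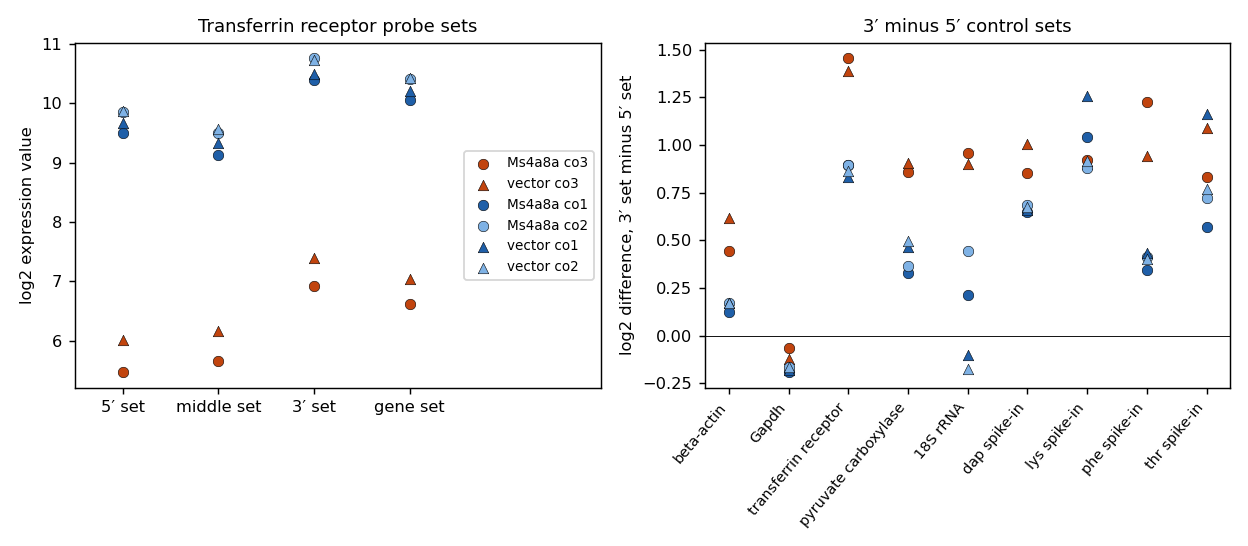
Left, log2 values of the 3 transferrin receptor control sets and of the gene's own set, Tfrc, on each array; right, the log2 difference of the 3′ minus the 5′ set of 9 control transcripts. Circles are Ms4a8a arrays, triangles vector arrays, and red marks co3: the co3 arrays lie lower in all 4 transferrin receptor sets, and higher than the other 4 arrays in the 3′ minus 5′ difference of 7 of the 9 controls, all but lys and thr.

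Across genes, 612 were at least 2-fold higher on co3 in both clones, which was 3.73% of 16387, and 459 were at least 2-fold lower in both, which was 2.80%. No gene was 2-fold higher in one clone and 2-fold lower in the other. These 1071 genes are called higher or lower in what follows. Because the split was chosen on this contrast, the 3.73% and 2.80% are the shares against which counts of gene groups can be set, and they support nothing. At 4-fold, 118 genes were higher (0.720%) and 26 lower (0.159%).

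The higher genes lay at a median level of 8.97 and 8.85 on the Ms4a8a and vector co3 arrays, against 7.12 to 7.30 on the others, and had a median shift of 1.60. The lower genes lay at 7.17 and 7.62 on co3, against 8.94 to 9.04, and had a median shift of -1.45. Of the lower genes 313 of 459 shifted further in the Ms4a8a clone, as did 265 of 612 higher genes. Just inside the limit of 1 log2 unit lay Pnpla2 and Cd40 (smaller shift of the 2 clones 1.001 each) and Net1 (-1.001), and just outside lay Pvr and Kdm3a (0.997 each) and Cstf2 (-0.996). The shares by chromosome ran from 2.14% on X to 5.97% on chromosome 17 for higher genes and from 1.89% on chromosome 6 to 3.84% on chromosome 4 for lower genes.

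**Figure D2:**
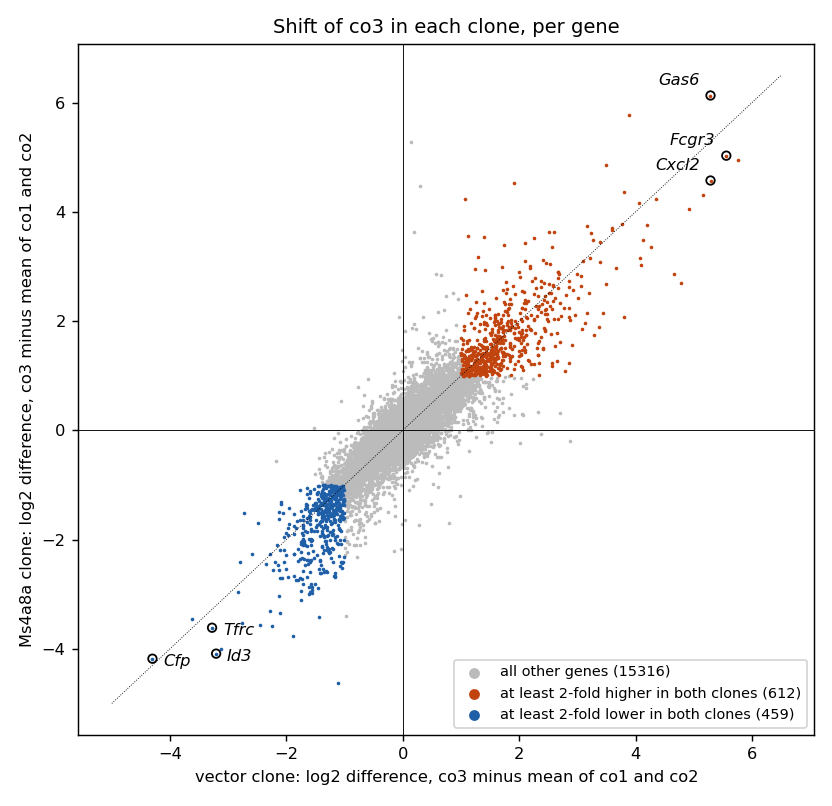
Each point is 1 of 16387 genes, with the log2 difference of co3 from the mean of co1 and co2 in the vector clone on the horizontal axis and in the Ms4a8a clone on the vertical axis. Red and blue points are the 612 higher and 459 lower genes, the dotted line marks equal differences, and the 6 named genes lie at both ends near that line.

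Gas6, Fcgr3 and Cxcl2 on the higher side and Cfp, Id3 and Tfrc on the lower had been taken as markers of the co3 arrays from earlier results of these data. That choice fixes that co3 stands apart from the other arrays in these genes. Gas6 encodes a growth arrest-specific protein that is a ligand of the TAM receptors Tyro3, Axl and Mertk. It read 10.13 on Ms4a8a co3 and 9.57 on vector co3, against 3.92 and 4.07 on the Ms4a8a arrays co1 and co2 and 4.31 and 4.25 on the vector arrays co1 and co2. The co3 arrays were far above the other 4, which lay close together, and the shift was 5.71 (SE 0.25). Those 4 values are as low as the markers of other cell types given further on, so the size of the shift depends on the bottom of the scale, and it was 4.26 with an offset of 32 added on the linear scale. Here and below the SE comes from a fit of clone and co3 over the 6 arrays with 3 residual degrees of freedom, and it holds both the gap between co1 and co2 and the unequal shifts of the clones.

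Fcgr3 encodes an activating receptor for IgG. Its levels were 11.97 on Ms4a8a co3 and 11.60 on vector co3, against 7.42 and 6.47 on Ms4a8a co1 and co2 and 5.93 and 6.14 on vector co1 and co2. The groups did not overlap, which follows from its choice as a marker, and the shift was 5.29 (SE 0.38), or 39.3-fold. Cxcl2, a chemokine that draws neutrophils, read 8.21 and 8.76 on the Ms4a8a and vector co3 arrays, against 3.88 and 3.40 on Ms4a8a co1 and co2 and 3.57 and 3.37 on vector co1 and co2, a shift of 4.93 (SE 0.27). The 4 arrays of co1 and co2 placed Cxcl2 near the bottom of the scale, where a fold can be understated.

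Cfp encodes properdin, which stabilises the alternative pathway convertase of complement. It read 5.26 and 6.06 on the Ms4a8a and vector co3 arrays, against 9.01 and 9.87 on Ms4a8a co1 and co2 and 10.02 and 10.71 on vector co1 and co2. Both co3 arrays were the lowest, with a shift of -4.24 (SE 0.39). The transferrin receptor gene Tfrc, which brings iron into dividing cells, read 6.62 and 7.03 on the co3 arrays, against 10.05 and 10.41 on Ms4a8a co1 and co2 and 10.20 and 10.42 on vector co1 and co2 (shift -3.45, SE 0.18). Its 5′ control set, made of other probes, read 5.47 and 6.01 on the co3 arrays against 9.50 to 9.88 on the others, and its 3′ set 6.92 and 7.40 against 10.39 to 10.76. Both ends of the transcript were thus lower on co3, the 5′ end more so.

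Id3, an inhibitor of basic helix-loop-helix factors, read 4.94 and 5.22 on the Ms4a8a and vector co3 arrays, against 8.24 and 9.80 on Ms4a8a co1 and co2 and 7.81 and 9.04 on vector co1 and co2. It was lowest on co3 (shift -3.65, SE 0.75), but co1 lay 1.56 below co2 in the Ms4a8a clone and 1.23 below it in the vector clone, so it also varied among the other arrays. Its relative Id2 had the same pattern, at 5.70 and 6.31 on co3 against 8.30, 9.80, 7.86 and 8.97 on Ms4a8a co1, Ms4a8a co2, vector co1 and vector co2. The transfected gene followed the clone. Ms4a8a read 8.15 on Ms4a8a co3 and 3.22 on vector co3, against 7.40 and 7.90 on Ms4a8a co1 and co2 and 3.07 and 3.32 on vector co1 and co2, so the clones kept their labels on every array.

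Among genes whose level reached that of the median gene, the 15 with the largest smaller shift of the 2 clones on the higher side were Fcgr3, Gpnmb, Wfdc17, Ahnak2, Eno2, Cbr2, Selenbp1, Ephx1, Fcgr4, Ltc4s, Tcn2, Anxa3, Cd83, Gdpd1 and Cd33. Their mean shifts ran from 3.38 for Gdpd1 to 5.36 for Gpnmb. The choice by shift fixes that co3 lies above the others in these genes. The level was taken over all 6 arrays, and in 8 of the 15 the mean of co1 and co2 was below the median gene at 6.05, so these reached that level through co3, Tcn2, Fcgr4 and Gdpd1 among them. Gpnmb, a transmembrane glycoprotein of the endosomal and lysosomal route, read 10.56 and 12.11 on the Ms4a8a and vector co3 arrays, against 5.54 and 5.69 on Ms4a8a co1 and co2 and 6.33 and 6.36 on vector co1 and co2. Several of the set encode enzymes. Ephx1, the microsomal epoxide hydrolase, had a shift of 4.09, the carbonyl reductase Cbr2 4.49, and Ltc4s, which makes leukotriene C4, 3.97. Tcn2, the plasma carrier of vitamin B12, was the steadiest, at 8.58 and 8.60 on the co3 arrays against 4.79 to 5.01 on the others (SE 0.07). Cd83 and Cd33, both surface proteins of myeloid cells, had shifts of 3.82 and 3.42.

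The 15 on the lower side were Cfp, Rbm3, Tfrc, Id3, Ccne2, Treml4, Tk1, Lmnb1, E2f8, Gclm, Sdf2l1, Uhrf1, Fam72a, Ppil1 and Pdss1, with mean shifts between -2.28 for Gclm and -4.24 for Cfp. In 5 of the 15 the mean of the co3 arrays was below the median gene, so these reached its level through co1 and co2. Of the 15, Ccne2, Tk1 and Uhrf1 are also members of the S phase list. Lmnb1, which encodes lamin B1 of the nuclear lamina, read 7.87 and 8.31 on the Ms4a8a and vector co3 arrays, against 10.30 and 10.35 on Ms4a8a co1 and co2 and 10.65 and 10.70 on vector co1 and co2 (shift -2.41, SE 0.04). Rbm3, an RNA-binding protein induced by mild cold, read 4.03 and 3.64 on co3, against 7.21 to 7.56 on the others (shift -3.54, SE 0.09). E2f8, a repressor of the E2F family, read 5.16 and 6.32 on co3, against 8.45 to 8.65.

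**Figure D3:**
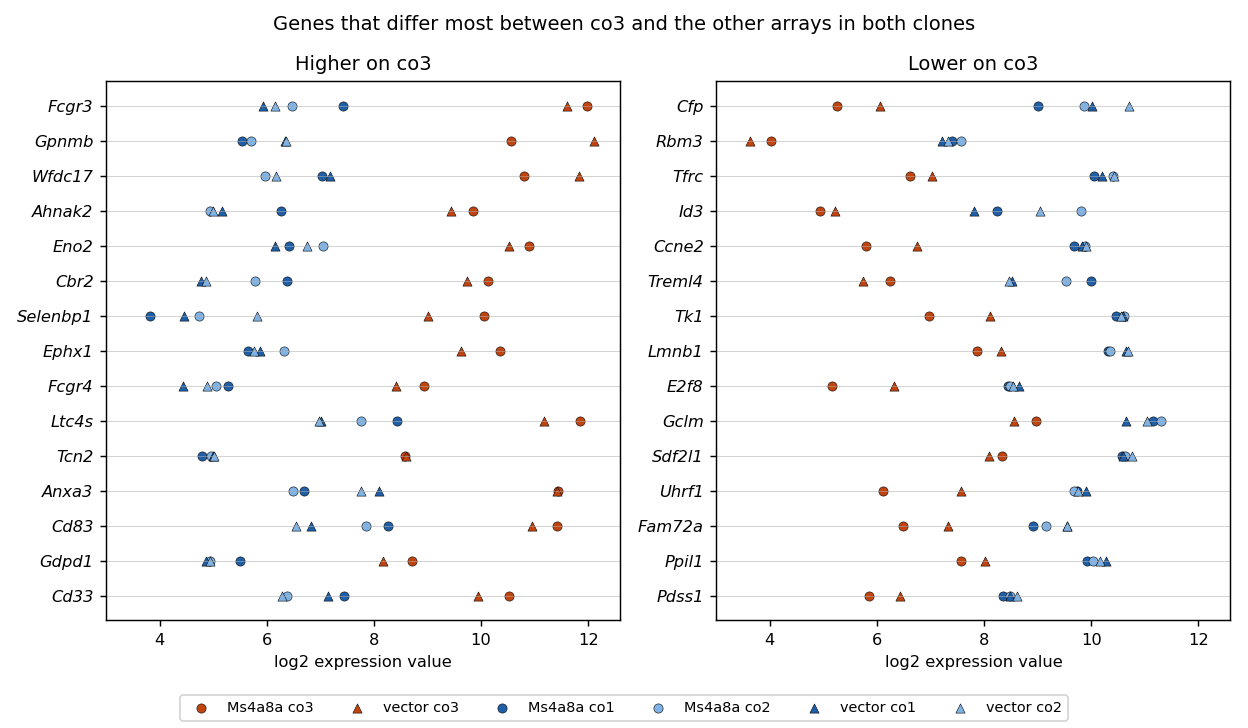
Log2 values on each array of the 15 higher and 15 lower genes with the largest shift shared by both clones, among genes whose level reached that of the median gene. Red symbols are co3, blue symbols co1 and co2, circles the Ms4a8a clone and triangles the vector clone, and the choice of the genes by their shift sets the red symbols apart from the blue ones.

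Genes of DNA replication and S phase were lower on co3. Of 41 measured genes of this list, 28 were at least 2-fold lower in both clones and none was higher. All 41 had a negative difference in both clones, as did 41.8% of all genes. The median shift was -1.75, against -0.03 over all genes, and the mean level of the list was 7.72 and 8.57 on the Ms4a8a and vector co3 arrays, against 9.76 to 9.87 on the others. Ccne2, the cyclin E2 that drives entry into S phase, read 5.79 and 6.75 on co3, against 9.68 and 9.89 on Ms4a8a co1 and co2 and 9.83 and 9.90 on vector co1 and co2 (shift -3.56, SE 0.27). Thymidine kinase Tk1 read 6.98 and 8.12 on co3, against 10.47 to 10.60 (shift -3.01), and Uhrf1, which maintains DNA methylation behind the replication fork, read 6.12 and 7.57 against 9.68 to 9.89 (shift -2.92). The large subunit of ribonucleotide reductase, Rrm1, had a shift of -2.26 and the catalytic subunit of DNA polymerase alpha, Pola1, one of -2.29. In each of these genes the Ms4a8a co3 array lay below the vector co3 array.

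Mitotic genes were lower as well. Of 37 measured, 24 were at least 2-fold lower in both clones and none higher, 36 had negative differences in both clones, and the median shift was -1.39. The kinesin Kif20a read 7.32 and 7.83 on the Ms4a8a and vector co3 arrays, against 9.77 to 9.92 on the others (shift -2.26, SE 0.17). Cyclin A2 (Ccna2) read 9.39 and 9.86 on co3, against 11.46 to 11.70, and the mitotic kinase Plk1 8.84 and 9.41, against 10.91 to 11.11. The kinetochore component Nuf2 and the microtubule depolymerase Kif2c had shifts of -2.14 and -1.98. The exception was the phosphatase gene Cdc25b, which read 8.87 and 8.92 on co3 against 8.68 to 8.92.

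Promoter sequence was not used to choose the split, so the windows of the lower genes were read for the letters of known cell cycle elements. RefSeq promoter windows on GRCm38.p6, from 250 bases before to 50 after a gene's start, were found for 13080 of the 16387 genes, and the first listed window of each gene was searched on both strands. No motif searched here contains another. An E2F-type motif, GCGCGAA or GCGGGAA, stood in 17 of 35 S phase windows (48.6%), in 84 of 374 windows of all lower genes (22.5%) and in 37 of 494 windows of higher genes (7.49%), against 9.24% of all genes with a window and 6.003% of all 32851 windows. The motif TTTGAA, part of the cell cycle homology region, stood in 23 of 30 mitotic windows (76.7%), 19.8% of lower and 9.72% of higher genes, against 13.1% of all genes and 17.9% of all windows. A match is a description of letters and not of binding. Stretches with such a match before the start come from the lower S phase genes Uhrf1, Rrm1 and Pola1 and mitotic genes Kif2c, Cdc20 and Ect2. These are not the mitotic genes with the largest shifts. Cdc20 shifted by -1.82 and -1.30 in the Ms4a8a and vector clones, and Ect2 by -1.82 and -1.19. Kif20a, Nuf2, Ccna2 and Plk1, which are not included, shifted further in both clones. The stretches run 5′ to 3′ on the gene's strand, with the motif or its reverse complement in capitals. They lie at chr17:56303267-56303317 (plus strand, Uhrf1), chr7:102441606-102441656 (plus, Rrm1), chrX:93632248-93632298 (minus, Pola1), chr4:117178848-117178897 (minus, Kif2c), chr4:118437344-118437383 (minus, Cdc20) and chr3:27153965-27154014 (minus, Ect2).
Uhrf1: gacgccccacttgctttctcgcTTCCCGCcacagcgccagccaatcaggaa
Rrm1: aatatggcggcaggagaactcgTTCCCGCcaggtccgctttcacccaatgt
Pola1: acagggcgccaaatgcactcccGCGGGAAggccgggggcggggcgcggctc
Kif2c: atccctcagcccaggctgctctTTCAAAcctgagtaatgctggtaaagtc
Cdc20: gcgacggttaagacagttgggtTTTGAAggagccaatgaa
Ect2: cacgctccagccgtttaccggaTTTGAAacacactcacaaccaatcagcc

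The list of CDK inhibitors and growth arrest genes went both ways. Of 30 measured CDK inhibitors and growth arrest genes, 8 were higher and 5 lower, with a median shift of 0.55. Beside Gas6, the antiproliferative gene Btg1 read 8.83 and 8.69 on the Ms4a8a and vector co3 arrays, against 6.12 and 5.58 on Ms4a8a co1 and co2 and 5.37 and 4.69 on vector co1 and co2 (shift 3.32, SE 0.36). Btg2 (2.52), the phosphoinositide 3-kinase inhibitor Pik3ip1 (2.62) and cyclin G2 (Ccng2, 2.14) were higher too. The lower members were Id3 and Id2, which are known to favour proliferation in many cells, and 3 others, Gadd45g (-2.06), the retinoblastoma relative Rbl1 (-1.72) and the inhibitor of CDK4 and CDK6 Cdkn2c (-1.08). Among 21 p53 targets 8 were higher and none lower (median 0.74), with Trp53inp1, which promotes autophagy and cell death, at 7.77 and 8.26 on co3 against 4.38 to 5.12 on the others (shift 3.24, SE 0.29), and the proapoptotic genes Pmaip1 (2.50) and Bbc3 (1.90).

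Most genes of growth and protein synthesis did not pass 2-fold. Of 30 genes of MYC and ribosome biogenesis 4 were lower and none higher, 25 had negative differences in both clones, and the median shift was -0.62. The lower members were Max, the partner of MYC (8.73 and 8.90 on the Ms4a8a and vector co3 arrays, against 10.29 to 10.56; shift -1.63), and the nucleolar genes Grwd1 (-1.45), Utp20 (-1.48) and Nop58 (-1.23). The 11 measured cytosolic ribosomal proteins pointed the other way, with 3 higher, none lower and a median of 0.43. Rpl22 read 12.33 and 12.05 on co3, against 10.40 and 9.72 on Ms4a8a co1 and co2 and 9.68 and 9.35 on vector co1 and co2 (shift 2.40). The other 28 of the 39 listed were not used here, so the median of 11 does not speak for the group. None of 19 aminoacyl-tRNA synthetases and none of 27 respiratory chain genes passed 2-fold in both clones, with medians of -0.13 and -0.23.

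Hypoxia-responsive genes had the highest median of all 39 lists. Of 22 measured, 11 were higher and none lower, 20 had positive differences in both clones, as did 32.8% of all genes, and the median shift was 1.38. Selenbp1, a selenium-binding protein, read 10.05 and 9.02 on the Ms4a8a and vector co3 arrays, against 3.82 and 4.74 on Ms4a8a co1 and co2 and 4.46 and 5.81 on vector co1 and co2 (shift 4.83, SE 0.80). Ndrg1, named for its control by Myc proteins, was higher by 3.64 in the Ms4a8a clone and 2.52 in the vector clone (shift 3.08), and the mTOR inhibitor Ddit4 read 10.21 and 10.75 on co3, against 7.82 to 8.62 (shift 2.29). The gene of the vasodilator peptide adrenomedullin, Adm, read 7.69 and 8.21 on co3, against 4.03 to 6.90, where the highest value, vector co2, was close to the co3 arrays. The transcript of Hif1a, which encodes the oxygen-sensitive factor itself, read 9.05 and 8.96 on co3, against 9.20 to 9.37.

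Of 19 glycolysis genes 4 were higher and none lower (median 0.42). Eno2, the neuron-type enolase, read 10.89 and 10.51 on the Ms4a8a and vector co3 arrays, against 6.42 and 7.04 on Ms4a8a co1 and co2 and 6.16 and 6.76 on vector co1 and co2 (shift 4.11, SE 0.31). The hexokinase Hk3 (2.22), the aldolase Aldoc (1.82) and the glucose transporter Slc2a1 (1.08) were the other 3, while the abundant pyruvate kinase Pkm read 13.96 on both co3 arrays against 14.03 to 14.14.

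Stress pathways of protein synthesis and folding divided. Of 23 genes of the unfolded protein response of the endoplasmic reticulum (ER), 8 were lower and none higher, 17 had negative differences in both clones, and the median shift was -0.89. Sdf2l1, an ER chaperone cofactor, read 8.33 and 8.09 on the Ms4a8a and vector co3 arrays, against 10.58 and 10.63 on Ms4a8a co1 and co2 and 10.59 and 10.77 on vector co1 and co2 (shift -2.43, SE 0.11). The disulfide isomerases Pdia4 and Pdia3 had shifts of -1.99 and -1.56, the chaperone Hyou1 -1.81 and Creld2 -1.90. Xbp1, a transcription factor of the response, read 12.74 and 12.55 on co3, against 12.48 to 12.59. Of 30 genes of the ATF4 and amino acid response 4 were higher and none lower (median 0.32). These were Ddit4, the kinase-like inhibitor Trib3 (1.96), Sesn2 (1.31) and Nupr1 (1.41), while the serine and folate enzymes Psat1, Mthfd2 and Psph differed by -0.55, -0.68 and -0.68. None of the heat shock proteins measured passed, with the chaperones Hsph1 and Dnajb1 at -0.64 and -0.41 and Hspa4l at 1.07, and the only call among the 14 genes of that list was the cold-induced Rbm3, as lower (list median -0.06).

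The letters CCAAT, the core of the NF-Y site that forms part of the ER stress element, stood in 18 of 20 windows of the ER list (90%) and in 73.3% of mitotic windows. The share was 51.3% of lower and 36.2% of higher genes, against 38.1% of all genes and 37.4% of all windows. The stretches of the 3 lower ER genes with the largest shared shifts that lie before the start are chr16:17132384-17132431 (minus strand, Sdf2l1), chr6:47813561-47813609 (minus, Pdia4) and chr15:88819546-88819594 (plus, Creld2) on GRCm38.p6, with each CCAAT or its reverse complement in capitals. Pdia4 holds both within its stretch. Only the letters CCAAT were searched, and the rest of the ER stress element was not.
Sdf2l1: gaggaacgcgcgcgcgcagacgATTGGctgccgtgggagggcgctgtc
Pdia4: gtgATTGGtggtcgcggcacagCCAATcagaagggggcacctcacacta
Creld2: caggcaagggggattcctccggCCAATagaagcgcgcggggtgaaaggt

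Some lysosomal genes were higher on co3. Of 44 measured hydrolases and membrane proteins 11 were higher, none was lower and the others did not pass 2-fold in both clones, 36 had positive differences in both clones, and the median shift was 0.84. Ctsb, which encodes the protease cathepsin B, read 10.94 and 11.15 on the Ms4a8a and vector co3 arrays, against 9.31 and 8.81 on Ms4a8a co1 and co2 and 8.78 and 8.67 on vector co1 and co2 (shift 2.16, SE 0.24). The peptidase Tpp1 had a shift of 1.94, the alpha-galactosidase Gla 1.65 and cathepsin H (Ctsh) 2.25. On the arrays co1 and co2 Ctsh read 3.59 to 3.88, near the bottom of the scale. Ctsc, encoding cathepsin C, read 9.49 and 9.90 on co3 against 9.46 to 10.02, and Tfeb, a master regulator of lysosomal genes, 8.08 and 7.76 against 8.09 to 8.28. Of 24 autophagy genes 3 were higher (median 0.57), among them the autophagosome proteins Map1lc3a (2.17) and Map1lc3b (1.55). Of 15 proton pump subunits 3 were higher (median 0.25), with Atp6v1d at 1.43 and Atp6v0a2 at -0.67.

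The motif TCACGTG, the E-box of the lysosomal gene network, stood in 9 of 40 lysosomal windows (22.5%), against 5.24% of all genes and 3.77% of all windows. Among the higher and the lower genes the shares were 6.88% and 8.56%. The stretches of 3 higher lysosomal genes are chrX:134601171-134601221 (minus strand, Gla), chr11:119267800-119267850 (plus, Gaa) and chr7:142387897-142387947 (minus, Ctsd) on GRCm38.p6, with the motif or its reverse complement in capitals. In Gla and Ctsd the motif overlaps its own reverse complement.
Gla: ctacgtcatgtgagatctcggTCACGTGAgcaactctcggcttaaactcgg
Gaa: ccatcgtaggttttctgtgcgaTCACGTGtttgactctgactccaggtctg
Ctsd: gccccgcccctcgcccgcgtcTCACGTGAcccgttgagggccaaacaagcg

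Receptors for antibody were among the genes farthest above the other arrays. Of 13 Fc receptor and adaptor genes 4 were higher and none lower (median 0.56). The activating receptor Fcgr4 read 8.94 and 8.42 on the Ms4a8a and vector co3 arrays, against 5.27 and 5.04 on Ms4a8a co1 and co2 and 4.43 and 4.88 on vector co1 and co2 (shift 3.77, SE 0.18). The inhibitory receptor Fcgr2b had a shift of 3.09 and the neonatal receptor Fcgrt one of 1.38. The Fcgr genes are close relatives, and whether their probes share signal was not tested. Of 23 macrophage identity genes 5 were higher and none lower (median 0.56). The pore-forming protein Mpeg1 read 12.50 and 11.95 on co3, against 10.19 and 8.48 on Ms4a8a co1 and co2 and 8.58 and 7.17 on vector co1 and co2, so it also varied among those 4 arrays. Adgre1, the F4/80 antigen, had a shift of 2.30, and the transcription factor Irf8 one of 1.70. The mean level of the macrophage list was high on every array, at 11.2 and 11.1 on co3 against 10.1 to 10.6. This does not hold for each member, as Maf read 3.38 and 3.42 on co3 against 3.42 to 3.59.

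Inflammatory genes were higher in part. Of 33 cytokine and NF-kB feedback genes 10 were higher and none lower, with a median of 0.31. Tnf read 10.96 and 11.23 on the Ms4a8a and vector co3 arrays, against 8.85 and 8.67 on Ms4a8a co1 and co2 and 8.83 and 8.72 on vector co1 and co2 (shift 2.32, SE 0.10). The ubiquitin-editing inhibitor Tnfaip3 (1.89) and Nfkbiz (1.83) were higher too, while Nos2, the inducible nitric oxide synthase, read 4.74 and 4.54 on co3 against 4.74 to 4.96. Of 22 chemokines only 3 passed, all higher (median -0.02): Cxcl2, Ccl3 and Ccl4. Ccl4 read 9.12 and 11.18 on co3 against 6.94 to 7.58, and Ccl3 11.82 and 13.16 against 9.44 to 9.99, both higher on the vector co3 array than on the Ms4a8a one. Ccl2 read 6.43 and 6.42 on co3 against 6.42 to 6.77.

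Of 29 immediate-early genes, which answer signals within minutes, 11 were higher and none lower (median 0.78). Ier3 read 12.38 and 12.47 on the Ms4a8a and vector co3 arrays, against 8.91 and 9.56 on Ms4a8a co1 and co2 and 8.58 and 9.90 on vector co1 and co2 (shift 3.19). The phosphatase Dusp6 read 6.29 and 9.12 on co3, against 3.23 and 3.29 on Ms4a8a co1 and co2 and 4.64 and 5.39 on vector co1 and co2, so both clones were higher from unequal levels. Of 19 glucocorticoid targets 6 were higher and none lower (median 0.85). Among these 6 were Sgk1 (2.05), Cebpd (2.02), Ddit4, Zfp36 (1.58) and Nfkbia (1.38). The last 3 are also induced by other pathways. Fkbp5, a commonly used target, read 8.18 and 8.36 on co3 against 8.58 to 8.88. Whether glucocorticoid signalling differed on co3 was not tested.

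Interferon-stimulated genes had 7 higher of 33 (median 0.12), with the deubiquitinase-like Usp18 at 2.25, the tetherin gene Bst2 at 1.96 and Mx1 at -0.20. On the arrays co1 and co2 Usp18 read 3.24 to 3.81, near the bottom of the scale. Of 20 genes of antigen presentation 6 were higher and none lower (median 0.83). The invariant chain Cd74 read 11.81 and 12.11 on the Ms4a8a and vector co3 arrays, against 9.49 to 10.05 on the others (shift 2.09, SE 0.19), and the class I gene H2-K1 had a shift of 1.43, while the class II gene H2-Aa read 4.06 and 4.08 against 4.07 to 4.32. Complement had 3 higher (C5ar1, Itgam and C3) and Cfp lower of 20 (median 0.02). Among 24 alternative activation genes the lectins Clec10a (1.71) and Clec7a (1.89) were higher (median 0.09), and Arg1 read 3.06 and 2.91 on co3 against 3.03 to 3.21.

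The redox, iron and lipid lists held called genes in both directions, where 3.73% of all genes were higher and 2.80% lower. In these lists and those of the next paragraph, a single call in a direction is near those shares. Of 25 genes of the NRF2 response 5 were lower and 1 higher, with a median of -0.36. Gclm, the modifier subunit of the enzyme that starts glutathione synthesis, read 8.96 and 8.56 on the Ms4a8a and vector co3 arrays, against 11.15 and 11.30 on Ms4a8a co1 and co2 and 10.66 and 11.03 on vector co1 and co2 (shift -2.28, SE 0.14). The quinone reductase Nqo1 (-2.10), glutathione reductase (Gsr, -1.50), Srxn1 (-1.33) and Pgd (-1.41) were lower, and Gstm1 was higher (1.41). Of 21 iron genes Tfrc was lower and the mitochondrial iron importer Slc25a37 higher (1.14), with a median of -0.05.

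Of 17 genes of liver X receptors and lipid efflux 3 were higher and 2 lower (median 0.05). Smpdl3a (2.47), the lipid droplet protein Plin2 (2.03) and Apoc2 (1.86) were higher. On the arrays co1 and co2 Apoc2 read 3.82 to 4.04, near the bottom of the scale. Lipoprotein lipase, Lpl, was lower, at 11.60 and 11.33 on the Ms4a8a and vector co3 arrays, against 12.80 to 13.49 (shift -1.69). Sterol synthesis had 1 lower of 16, Ebp (-1.36; list median 0.04), and fatty acid synthesis 1 higher (Lpin1, 1.06) and 1 lower (Fads2, -1.66) of 18 (median -0.24). Fatty acid oxidation had 2 higher of 17, Plin2 and Acot1 (list median 0.01). Of 25 genes of the TAM receptors and the uptake of dying cells, Gas6 and Lrp1 (1.68) were higher and Cd36 lower (median 0.01), while the Gas6 receptor Axl read 3.88 and 4.25 on co3 against 3.35 to 3.81. Of 20 TGF-beta and BMP targets Id3, Id2 and Pmepa1 (-1.42) were lower (median 0.07), and Id1, the third inhibitor of that family, read 9.27 and 8.95 on co3 against 8.12 to 8.91. Osteoclast genes had 1 higher and 2 lower of 18 (median -0.05), the lower ones being the receptor for RANK ligand, Tnfrsf11a (-1.45), and Ocstamp (-1.42).

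Markers of other cells lay low on all 6 arrays. None of 7 markers of B and T cells, 5 of granulocytes, 4 of dendritic cells and 9 of fibroblasts, epithelium and erythroid cells passed 2-fold in both clones. The mean level of the lymphocyte markers was 4.23 and 4.24 on the Ms4a8a and vector co3 arrays against 4.13 to 4.30 on the others, that of the granulocyte markers 4.18 and 4.15 against 4.14 to 4.39, that of the dendritic cell markers 4.59 and 5.13 against 4.76 to 5.06, and that of the last list 3.56 and 3.57 against 3.54 to 3.66. All lay below the median gene at 6.02.

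**Figure D4:**
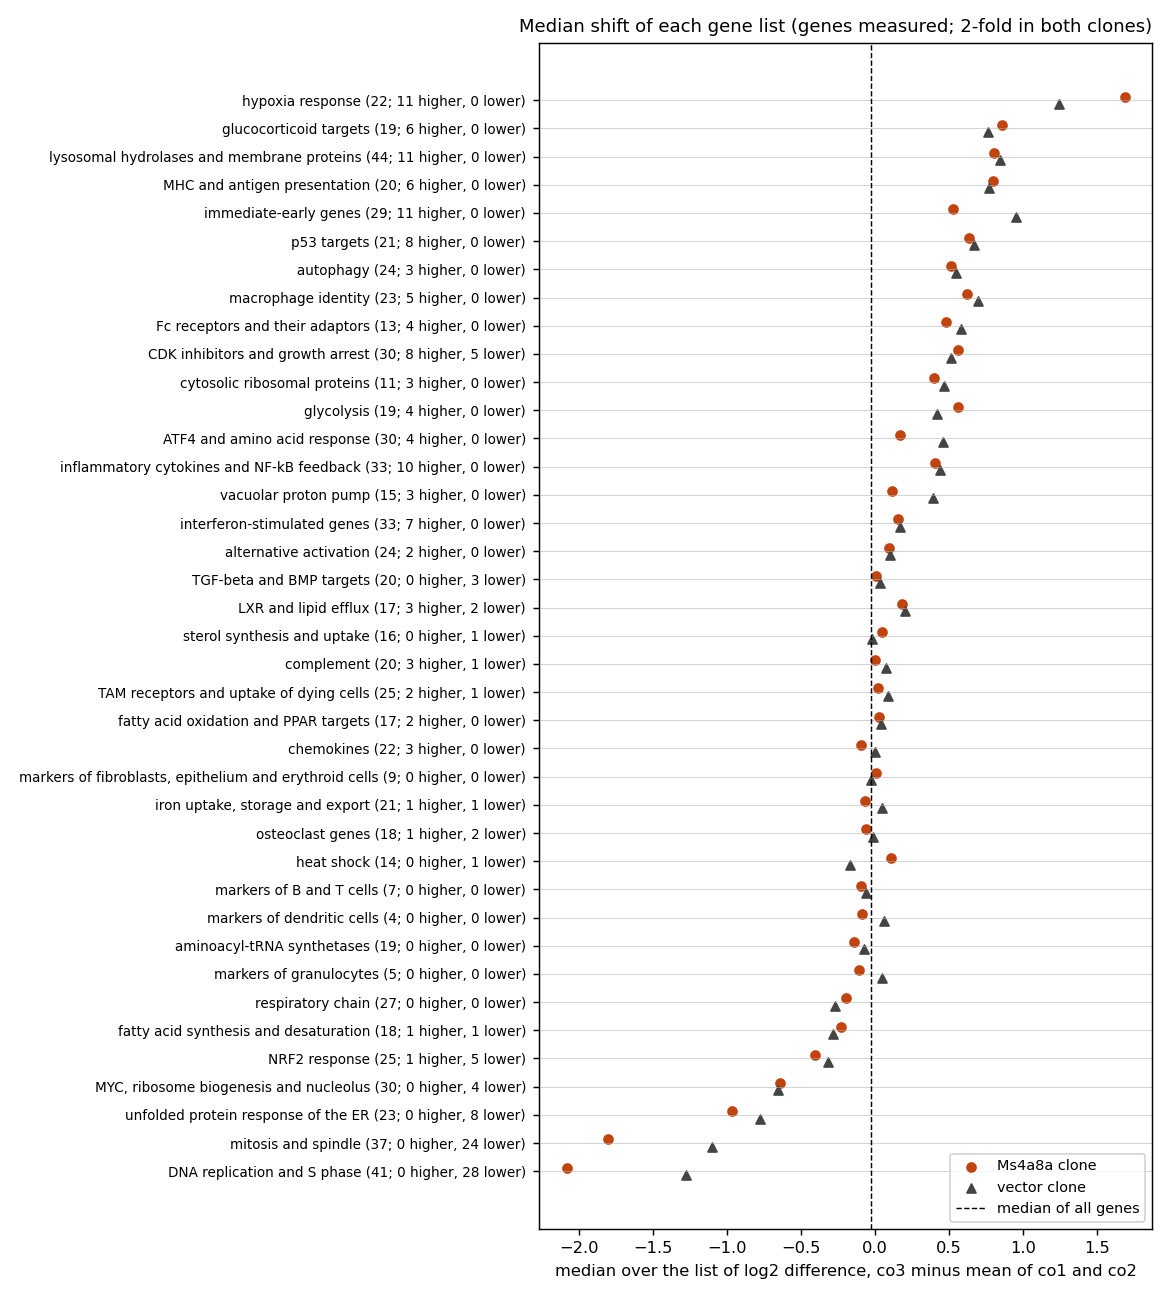
Median over each gene list of the log2 difference of co3 from the mean of co1 and co2, in the Ms4a8a clone (red circles) and the vector clone (dark triangles), with the dashed line at the median of all genes (-0.03). Names give the genes measured and how many were at least 2-fold higher or lower in both clones; DNA replication lies lowest and the hypoxia response highest, and the 2 cell cycle lists lie lower in the Ms4a8a clone than in the vector clone.

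The difference between the 2 clones' shifts is another contrast than the one that chose the split, and it was tested against the gap between co1 and co2. A limma model with clone, co3 and their interaction was fitted to all 16387 genes. Its spread came from co1 against co2 alone, so each clone's single co3 array was assumed to vary like those. No spread among co3 arrays of 1 clone was measured, and a pass says only that the shifts of 2 single co3 arrays differed beyond the spread of co1 against co2. The term passed a Benjamini-Hochberg adjusted p of 0.05 for 75 genes (0.458%), with 27 shifts more positive in the Ms4a8a clone (0.165%) and 48 more negative (0.293%), and 1891 genes had an unadjusted p under 0.05. With the replicate number as a block the count was 218, with 65 more positive and 153 more negative. The count depended on single arrays, at 4 without vector co1, 4 without vector co2, 10 without Ms4a8a co1 and 28 without Ms4a8a co2. It was 9 with the offset of 32. The larger number of negative differences was not kept throughout, with 6 more positive and 3 more negative under the offset, 7 and 3 without Ms4a8a co1, 15 and 13 without Ms4a8a co2, and 2 and 2 without either vector array.

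The genes with the smallest p shifted by unequal amounts in the 2 clones. Ranbp3l, a Ran-binding protein, read 8.76 on Ms4a8a co3 and 3.40 on vector co3, against 3.47 and 3.48 on Ms4a8a co1 and co2 and 3.28 and 3.25 on vector co1 and co2. Only the Ms4a8a co3 array was high (difference of shifts 5.15, limma adjusted p = 0.00034). The other 5 values lay near the bottom of the scale, and with the offset of 32 the difference was 3.40 (limma adjusted p = 0.00853). Scel, which encodes sciellin, read 8.73 on Ms4a8a co3 and 4.39 on vector co3, against 3.96 to 4.34 on the others (4.18, adjusted p = 0.0041). Cd36, a scavenger receptor for lipoproteins, read 4.26 on Ms4a8a co3 and 6.30 on vector co3, against 8.94 and 8.84 on Ms4a8a co1 and co2 and 7.37 and 7.47 on vector co1 and co2. It was lower on co3 in both clones, but the Ms4a8a clone was the higher of the clones on co1 and co2 and the lower on co3 (-3.51, adjusted p = 0.00342). Those 3 genes passed under every alternative in which they were tested.

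The rhodanese gene Tst (difference of shifts 2.43), neuroserpin Serpini1 (2.28), the heme-binding protein Hebp1 (2.14), the peroxisomal transporter Abcd2 (3.44), xanthine dehydrogenase Xdh (1.88) and the RNA-binding protein Rbpms (1.72) shifted further upward in the Ms4a8a clone. Dcstamp, a membrane protein needed for the fusion of osteoclasts, read 5.96 on Ms4a8a co3 and 8.07 on vector co3, against 8.11 to 8.23 on the others (-2.05, limma adjusted p = 0.0188). Kcne3, a potassium channel subunit (-1.99), and the class II gene H2-Ab1 (-1.75) were highest on the vector co3 array, at 5.21 and 5.48, against 3.16 and 3.68 on Ms4a8a co3. These 9 genes had limma adjusted p-values from 0.00754 for Tst to 0.0239 for Rbpms, and each lost its call in 2 to 4 of the 7 to 9 alternatives run on it. With the offset of 32 the difference was 1.38 for Serpini1, 0.91 for Rbpms, -0.74 for Kcne3 and -0.76 for H2-Ab1, and of these 4 only Serpini1 passed.

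The test of the difference between the clones' shifts was passed by a minority of the S phase genes and by no mitotic gene. The interaction passed for 11 of 41 S phase genes, all more negative in the Ms4a8a clone, where 0.293% of all genes passed in that direction. With the replicate block it passed for 16, with the variance trend for 14, and with the offset of 32 on the linear scale for 1. Without any 1 of the 4 arrays of co1 and co2 it passed for none of the 41, with smallest adjusted p-values of 0.0614 to 0.0924. The differences of shifts were negative for 37 of 41 S phase genes, with a median of -0.80, and for 37 of 37 mitotic genes, with a median of -0.63, against 0.01 over all genes. None of the mitotic genes passed (2 with the replicate block). Of the list's members with the smallest p, the replicative helicase subunit Mcm6 differed from its own co1 and co2 by -2.89 in the Ms4a8a clone and -1.46 in the vector clone (difference -1.43, limma adjusted p = 0.0376), and the small ribonucleotide reductase subunit Rrm2 by -2.97 and -1.55 (-1.42, adjusted p = 0.0359). All members of a list come from the same 6 arrays, and so a shared difference of 1 array moves them together.

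**Figure D5:**
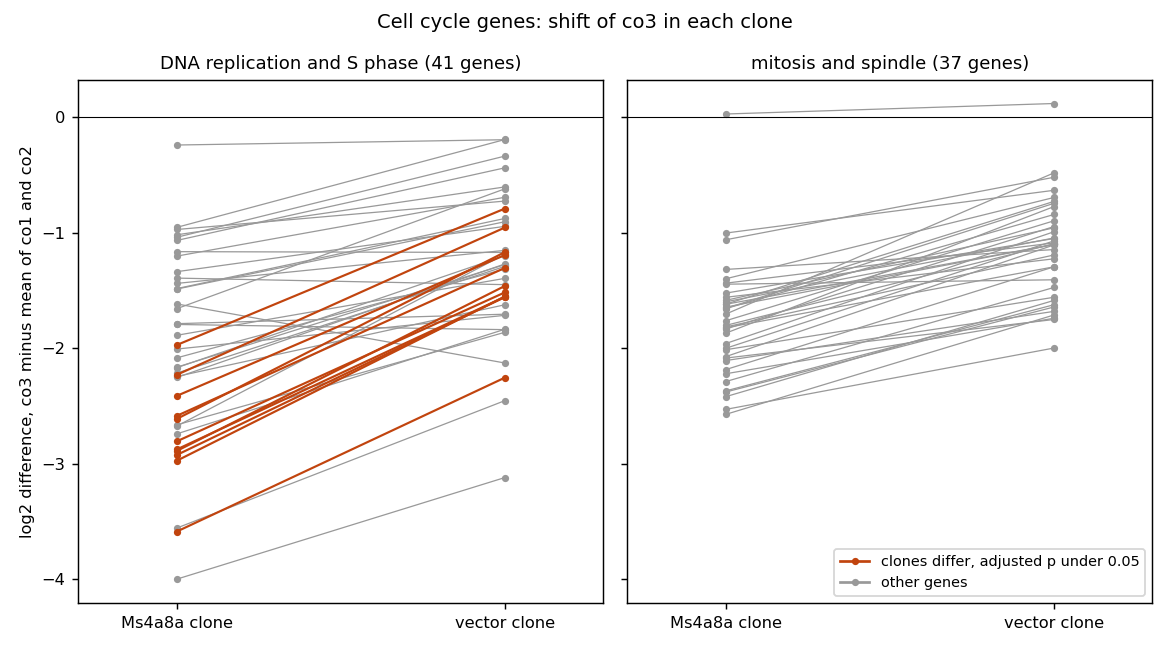
Log2 difference of co3 from the mean of co1 and co2 for each of 41 S phase genes and 37 mitotic genes, in the Ms4a8a clone on the left and the vector clone on the right of each panel, 1 line per gene. Red lines are the 11 S phase genes whose difference between clones had an adjusted p under 0.05, and most lines in both panels lie lower at the Ms4a8a end.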

How the data were processed

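The authors deposited log2 values, 1 per probe set and array. The sorted columns differed by 0, as after quantile normalisation, and ran from 2.24 to 14.6 around a median of 5.94. The summary method, background correction, software and probe build are not given in the sources used here. Of 17370 probe sets, 64 were controls, 919 had no symbol and 16387, numbered by gene with 1 set each, were analysed; 16358 numbers were found in RefSeq GRCm38.p6, and 1773 symbols were updated as synonyms. Precision is limited by the number of arrays; detection calls were not used.

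A shift is the co3 log2 value minus the mean of co1 and co2 within a clone, averaged over both clones; the limit was 1 log2 unit (2-fold) in each clone. The interaction was fitted with limma 3.58.1 in R 4.3.3 (lmFit and eBayes, two-sided, 2 residual degrees of freedom, 1 with the replicate block), adjusted over all genes by Benjamini-Hochberg, and the script was tested on simulated data. Tables used Python 3.11.15 with pandas 2.3.3. The p-values reflect only how these arrays vary, and that variation may be technical.

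Same-numbered arrays of the 2 clones deviated together from their clone means (r across genes 0.709, 0.809 and 0.865 for numbers 1, 2 and 3), which passed the limit of 0.1 for pairing. With co3 apart, numbers 1 and 2 deviate together in any order (Ms4a8a co2 with vector co1, 0.713), so this limit cannot tell paired from unpaired arrays.

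The members and the 39 gene lists were chosen with earlier results of these data known. The genes named are the 15 in each direction with the largest smaller shift of both clones among genes whose level reached that of the median gene, with shifts above the gap of co1 and co2 and no predicted symbols; the 6 marker genes; up to 5 per list and direction; the 12 smallest p of the interaction; and Ms4a8a. Outside this rule, Pnpla2, Cd40, Net1, Pvr, Kdm3a and Cstf2 were named for their place at the limit, Mcm6, Rrm2 and Acot1 from the interaction, and Cdc20, Ect2, Gaa and Ctsd for their promoter letters, after their values were seen. Alternatives changed the filter on low values, an offset of 32 on the linear scale, the fold limit, the variance trend, the replicate block and the arrays used.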

Additional observations from a re-analysis of the deposited data

Results flagged for a closer look

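The shift on co3 differed between the clones for 16 of the genes named, by the limma interaction at an adjusted p under 0.05. The difference, Ms4a8a minus vector, was 5.15 for Ranbp3l, 4.18 for Scel, 3.44 for Abcd2, 2.43 for Tst, 2.28 for Serpini1, 2.14 for Hebp1, 1.88 for Xdh, 1.72 for Rbpms and 1.66 for the acyl-CoA thioesterase Acot1. It was -3.51 for Cd36, -2.05 for Dcstamp, -1.99 for Kcne3, -1.75 for H2-Ab1, -1.43 for Mcm6, -1.42 for Rrm2 and -1.33 for Uhrf1. Each rests on 1 co3 array per clone, set against the gap between co1 and co2. Acot1 read 6.90 on Ms4a8a co3 and 5.03 on vector co3, against 3.43 and 3.56 on Ms4a8a co1 and co2 and 3.28 and 3.30 on vector co1 and co2. Cd36, Ranbp3l and Scel kept their call in each alternative run on them (9, 8 and 8), and the other 13 lost it in 2 to 5.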

How the results depend on the processing

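The counts of 612 higher and 459 lower genes were 1322 and 1261 at a limit of 1.5-fold and 118 and 26 at 4-fold. Over the filters on low values, the offset and the arrays left out, they stayed within 1.5 times, from 423 to 654 for higher genes and 324 to 481 for lower. The 75 genes of the interaction became 218 with the replicate block, 37 when genes below the median gene were left out, 9 with an offset of 32 on the linear scale, and 4 to 28 with 1 array of co1 or co2 left out, where fewer residual degrees of freedom remain. Leaving out a co3 array leaves no contrast in its clone and gives no value. The shift of single named genes stayed within 1 SD of its 4 co3 minus co1 or co2 differences in 147 alternatives and moved further in 18, and list medians did so in 231 and 45, mostly with the offset or the filters. The median of the p53 targets was 0.37 with the offset, against 0.74 without it, and that of the chemokines was 1.17 over those at or above the median gene, against -0.02 over all. List medians near 0 changed sign in some alternatives, and no gene counted as higher or lower did among those named. The named interaction genes kept their call in 87 alternatives and lost it in 45. With 1 co3 array per clone, no spread among co3 cultures was measured.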
